A study of Homo sapiens with 6 samples.

Results

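The genes of the mevalonate pathway down to squalene were followed in SU-DHL-8 cells, a human line of diffuse large B-cell lymphoma, the lymphoma type that arises from mature B cells. They were chosen by gene symbol as a list of 9 enzymes. ACAT2, HMGCS1, MVK, PMVK, MVD, IDI1, FDPS and FDFT1 lie on the route from acetyl-CoA to squalene, and GGPS1 on a side branch. All 9 were among the 65746 genes of the deposited count table, and all 9 passed the filter on low counts, which kept 11525 genes. The treated cells received beta-sitosterol (labelled β-ST), a plant sterol that resembles cholesterol, at 15 µM for 24 h. Control cells received DMSO, the solvent, at a matching concentration for the same time. Both groups were the unmodified line (genotype WT), grown in medium with serum, with 3 libraries each and 6 in all. The study used 1 cell line, and p-values measure only the spread between these libraries.

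Mammalian cells build cholesterol and all other isoprenoids from acetyl-CoA. Acetyl units are joined to a branched acid, which becomes mevalonate, and mevalonate is phosphorylated and decarboxylated to the 5-carbon isoprene unit. Isoprene units are linked to farnesyl diphosphate, where the route divides towards squalene and sterols or towards geranylgeranyl diphosphate, the lipid anchor of many small GTPases. When sterol in the endoplasmic reticulum is low, the transcription factor SREBP2 moves to the nucleus and raises transcription of these enzymes, together with the factors NF-Y and Sp1. When sterol is high, INSIG proteins hold SREBP2 back. Dividing B-lineage cells use the pathway for membrane sterol and for prenylated signalling proteins.

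Promoter windows of 4 genes are shown because NF-Y binds the letters CCAAT and these windows differ in how many copies they hold. Each stretch is the 250 bases before a RefSeq transcript start on GRCh38.p14, written 5′ to 3′ on the gene's strand, and capitals mark CCAAT on either strand, which reads ATTGG where the box lies on the other strand.
HMGCS1, chr5:43313413-43313662, minus strand: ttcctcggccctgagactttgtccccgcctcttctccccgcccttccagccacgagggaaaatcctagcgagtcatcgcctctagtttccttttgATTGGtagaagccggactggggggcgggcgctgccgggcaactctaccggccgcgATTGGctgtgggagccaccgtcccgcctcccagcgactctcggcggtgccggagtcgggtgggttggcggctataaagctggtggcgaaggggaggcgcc
MVK, chr12:109573544-109573793, plus strand: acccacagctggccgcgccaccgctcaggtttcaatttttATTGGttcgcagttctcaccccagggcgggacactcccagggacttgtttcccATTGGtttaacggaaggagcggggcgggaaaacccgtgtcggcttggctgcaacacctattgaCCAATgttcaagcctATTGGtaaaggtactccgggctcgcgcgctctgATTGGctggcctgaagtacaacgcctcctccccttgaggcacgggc
FDPS, chr1:155308616-155308865, plus strand: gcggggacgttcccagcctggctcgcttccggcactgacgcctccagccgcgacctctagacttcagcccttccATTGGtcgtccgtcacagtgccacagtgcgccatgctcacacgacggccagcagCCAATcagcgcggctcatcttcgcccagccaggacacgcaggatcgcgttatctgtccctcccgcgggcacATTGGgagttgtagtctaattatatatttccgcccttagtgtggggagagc
PMVK, chr1:154936720-154936969, minus strand: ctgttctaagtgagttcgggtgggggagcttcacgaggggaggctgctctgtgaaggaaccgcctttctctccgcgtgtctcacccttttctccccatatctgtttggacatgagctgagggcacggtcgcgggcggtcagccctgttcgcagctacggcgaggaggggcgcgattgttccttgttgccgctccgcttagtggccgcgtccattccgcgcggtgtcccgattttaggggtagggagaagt
Promoter windows were matched for 7 of the 9 genes, 12 windows in all since some genes have several starts. CCAAT was found in 7 of the 12 windows, against 32.0% of all 35116 windows of this length. These windows belonged to 6 of the 7 genes, but a background share per gene was not computed. At least 2 copies were found in 6 of the 12 windows, against 9.53% of all windows, and these 6 belonged to 5 genes, HMGCS1, MVK, MVD, IDI1 and FDPS. The MVK window held 5 copies, the FDPS and MVD windows 3 each, the first HMGCS1 window 2 and the PMVK window 0. The PMVK window precedes a start inside the annotated span of PMVK, which ends at 154942658. Sequence before that outer end was not searched. The Sp1 letters GGGCGG were in 11 of the 12 windows, against 42.6% of all. Neither CACCCCAC, the core of the classical sterol regulatory element, nor the looser TCACNCCAC was in any of the 12 windows. Of all windows 2.43% and 0.883% held them, and these motifs overlap each other. At shares this low, 0 of 12 windows cannot show a lack of sterol elements, and other forms were not searched. The E-box letters CACGTG were in 0 of the 12, against 6.34% of all. Both strands were searched. MVK starts head to head with MMAB, a cobalamin enzyme gene, and their annotated spans overlap by 233 bases. The MVK window lies beyond that overlap, inside the annotated span of MVK. It is also upstream sequence of MMAB, whose own window is chr12:109573505-109573754.

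Libraries held 26453101 to 35565163 counts. One library, DMSO replicate 2, stood apart: its listed TPM values (transcript abundance scaled for gene length and library size) summed to 39.5% of a full total, against 57.0% to 69.2% in the other 5. On the log2 CPM scale (CPM being counts scaled to library size, here with TMM factors), PMVK, MVD and MVK lay in that library at -1.18, -0.87 and -0.75 relative to the mean of the other DMSO libraries, FDPS at -0.55 and ACAT2 at -0.37. HMGCS1 and FDFT1 lay at -0.16 and -0.05, GGPS1 at 0.25 and IDI1 at 0.28. The 9 genes are therefore tested with and without it, as are the counts over the related lists. All 7 B-cell markers on the list, MS4A1, CD79A and PAX5 among them, were present, with a summed level of 1819 to 2518 CPM in DMSO and 2285 to 2450 CPM in treated libraries. Of the 7 T-cell markers 1, TRAC, reached 1 CPM in any library, with sums of 1.76 to 2.05 and 1.12 to 1.55 CPM and CD3E, CD3G and CD2 at 0. Of the 5 monocyte markers 2, CD14 and LYZ, did so, with sums of 4.61 to 7.04 and 6.35 to 8.40 CPM and FCGR3A at 0. None of the 5 epithelial or 5 fibroblast markers did, but their sums were higher in treated libraries. The epithelial sum was 0.063 to 0.088 CPM in DMSO and 0.10 to 1.05 CPM in treated libraries, and the fibroblast sum 0.059 to 0.13 and 0.72 to 1.16 CPM, with DCN at 0. The part of these markers in the results was not tested.

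The comparison asked how transcript levels of the pathway differed after beta-sitosterol. FDFT1, HMGCS1 and MVK were lower, ACAT2 was higher, and PMVK, MVD, IDI1, FDPS and GGPS1 did not pass the test. On counts 3 of the 9 were called lower and 1 higher (edgeR quasi-likelihood test, adjusted p under 0.05). Over all tested genes 21.8% were called lower and 19.0% higher, 40.8% in all. The median log2 fold change of the 9 was 0.015, against -0.039 over all tested genes. The 3 treated libraries lay wholly below the 3 DMSO libraries for 3 of the 9 and wholly above for 2, where 29.1% and 27.0% of tested genes did so, 56.1% in all. Without DMSO replicate 2, 4 were lower and 2 higher, MVD and GGPS1 being added, against 30.3% and 26.4% of tested genes. The shares were near the background in both fits. In RNA from a bulk culture, fewer cells that express a gene and less of its RNA per cell cannot be told apart.

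Some other ways of processing gave other counts and some gave the same, each read against its own background. DESeq2 called 3 of the 9 lower and 2 higher, against 22.3% and 21.8% of tested genes. With a trend on gene length removed, 3 were lower and 1 higher, against 23.4% and 17.8%, and without DMSO replicate 2 as well 4 were lower and 2 higher, against 30.9% and 25.8%. The deposited TPM, as log2(TPM + 1), gave 2 lower and 0 higher, against 19.3% and 6.19%. Rescaled to the listed genes, the TPM gave 3 lower and 1 higher, against 35.2% and 11.8%. Without DMSO replicate 2 the TPM scale gave 6 lower and 0 higher, against 56.1% and 10.5%. The rescaled TPM, and the TPM and length fits without DMSO replicate 2, were chosen after seeing the data.

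**Figure D1:**
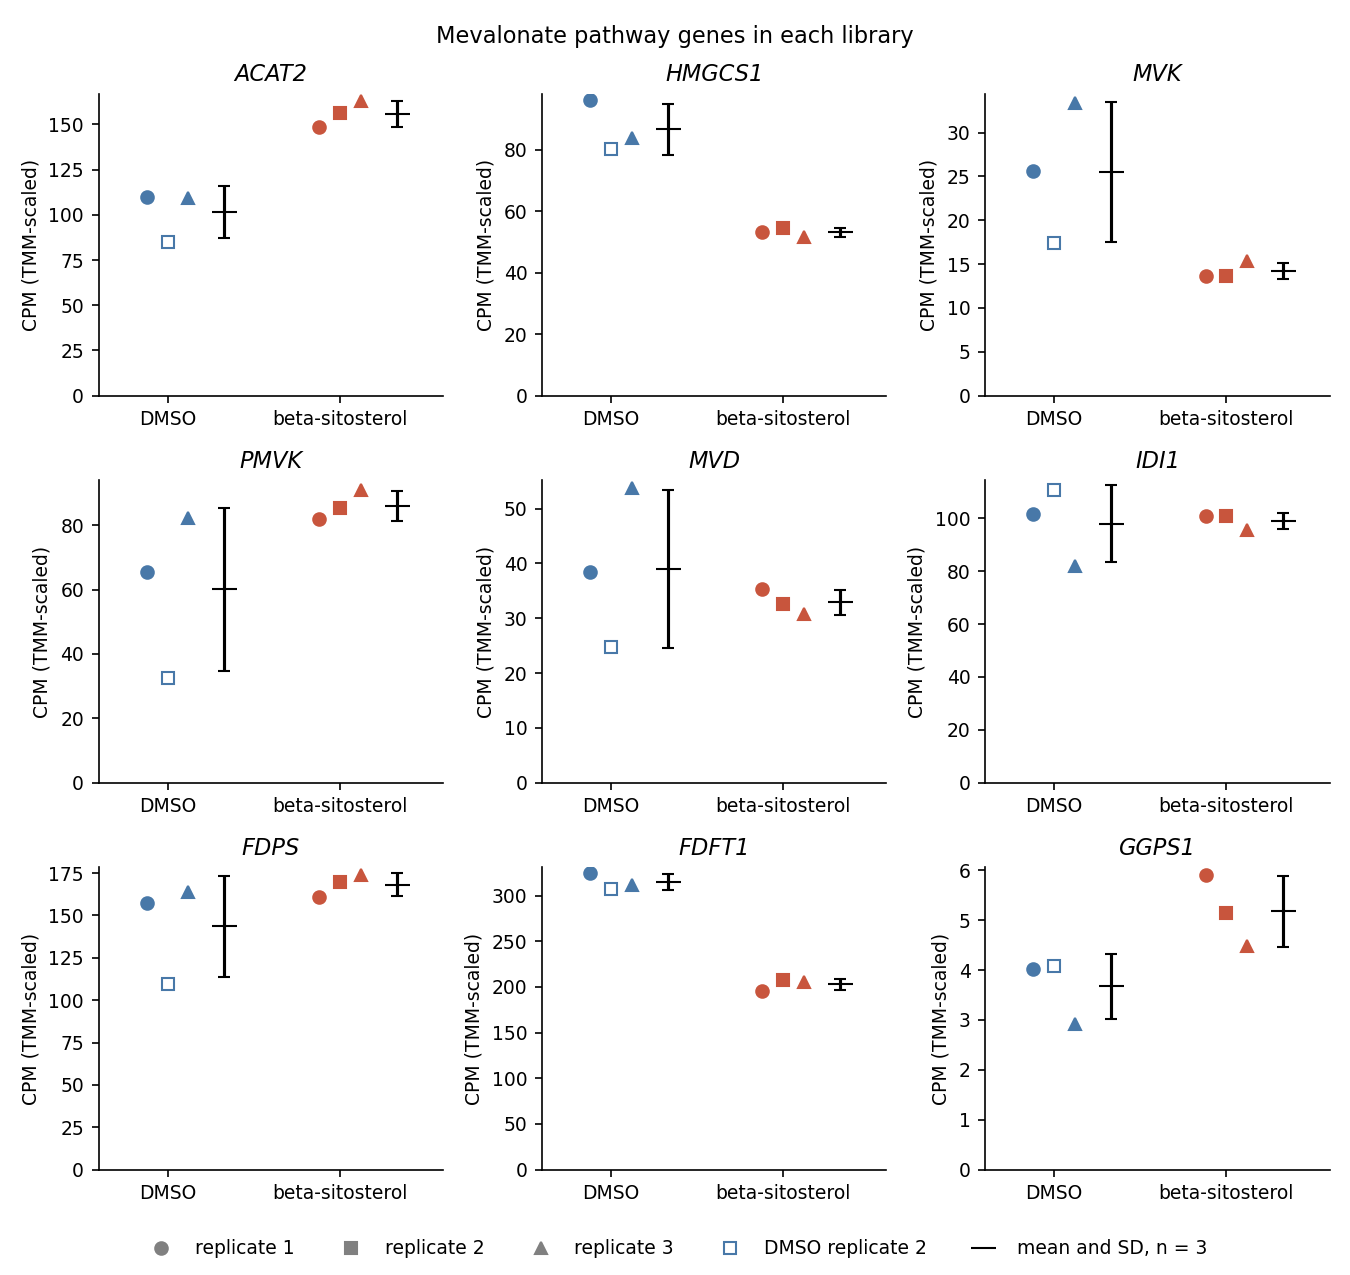
TMM-scaled CPM of the 9 genes in each library, by group, on axes that start at 0; symbols give the replicate, the open square is DMSO replicate 2, and black bars give mean and SD of 3 libraries. FDFT1, HMGCS1 and MVK lie lower in all 3 treated libraries than in any DMSO library, ACAT2 and GGPS1 lie higher, and the other 4 overlap.

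The pathway opens with ACAT2 (ENSG00000120437, chromosome 6, 159762045 to 159779112), the cytosolic thiolase that joins a pair of acetyl-CoA molecules into acetoacetyl-CoA. Its level was 110.1, 84.8 and 109.5 CPM in DMSO replicates 1 to 3 and 148.6, 156.3 and 163.05 CPM in treated replicates 1 to 3. Every treated library was above every DMSO library, and DMSO replicate 2 was the lowest. ACAT2 rose 1.54-fold, by 0.62 ± 0.14 in log2 (± SE; edgeR adjusted p = 0.0071), and by 0.50 ± 0.087 without DMSO replicate 2 (edgeR adjusted p = 1.75e-04). The rise depended on the scale. Deposited TPM values were 103.7, 50.99 and 102.9 in DMSO and 102.4, 105.8 and 109.05 in treated libraries, so that only DMSO replicate 2 stood clear of the treated ones. As log2(TPM + 1) the difference was 0.37 ± 0.29 (limma adjusted p = 0.38), and without DMSO replicate 2 it was 0.033 ± 0.063 (limma adjusted p = 0.66). With TPM rescaled to the listed genes ACAT2 kept its call, at 0.34 ± 0.11 (limma adjusted p = 0.042). The median of all tested genes lay at -0.19, -0.36 and -0.25 in these 3 fits, and ACAT2 lay above it in each. The span of ACAT2 overlaps that of TCP1, a chaperonin gene on the opposite strand, by 615 bases. TCP1 stood at 1119 to 1280 CPM in DMSO and 1373 to 1463 CPM in treated libraries, and reads from the overlap cannot be assigned with certainty, because the sources used here do not give the strand setting of the counting.

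HMGCS1 (ENSG00000112972, chromosome 5, 43287470 to 43313412) encodes the cytosolic synthase that adds a further acetyl unit to make HMG-CoA. It stood at 96.1, 80.2 and 83.8 CPM in DMSO and at 53.2, 54.6 and 51.5 CPM in treated libraries. The groups lay far apart and DMSO replicate 2 was close to DMSO replicate 3. HMGCS1 fell by 0.71 ± 0.12 in log2 (± SE; edgeR adjusted p = 0.0022), and by 0.76 ± 0.098 without DMSO replicate 2 (edgeR adjusted p = 1.06e-05). It was also lower on log2(TPM + 1), at -0.93 (limma adjusted p = 0.031).

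The next enzymes turn mevalonate into the isoprene unit. MVK (ENSG00000110921, chromosome 12, 109573272 to 109598125), mevalonate kinase, stood at 25.6, 17.4 and 33.4 CPM in DMSO and at 13.7, 13.7 and 15.3 CPM in treated libraries. DMSO libraries were spread widely, with DMSO replicate 2 the nearest to the treated ones, but the groups did not overlap. MVK fell by 0.84 ± 0.22 in log2 (± SE; edgeR adjusted p = 0.017), and by 1.06 ± 0.14 without DMSO replicate 2 (edgeR adjusted p = 1.03e-05). The call was lost without DMSO replicate 1 or treated replicate 1 or 2 (edgeR adjusted p = 0.058, 0.069 and 0.065) and on log2(TPM + 1) with all libraries (limma adjusted p = 0.089). Without DMSO replicate 3 MVK fell by 0.56 (edgeR adjusted p = 0.037), over 1.5 times less than with all libraries. MMAB, its head-to-head neighbour, stood at 29.9, 18.2 and 32.6 CPM in DMSO and at 24.1, 22.9 and 24.7 CPM in treated libraries, which came to -0.17 ± 0.21 in log2 (edgeR adjusted p = 0.54). MMAB was called lower too without DMSO replicate 2, at -0.39 ± 0.11 (edgeR adjusted p = 0.0082). Within each library the ratio of MVK to MMAB counts was 0.86, 0.96 and 1.02 in DMSO and 0.57, 0.60 and 0.62 in treated cells.

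PMVK (ENSG00000163344, chromosome 1, 154924740 to 154942658), phosphomevalonate kinase, stood at 65.5, 32.4 and 82.3 CPM in DMSO and at 81.8, 85.4 and 90.9 CPM in treated libraries. The groups overlapped, and DMSO replicate 2 was the lowest. Its log2 fold change was 0.52 ± 0.29 (edgeR adjusted p = 0.18; 95% interval -0.14 to 1.17), and 0.21 ± 0.11 without DMSO replicate 2 (edgeR adjusted p = 0.11). Without DMSO replicate 3 it was 0.86 (edgeR adjusted p = 0.036). With all libraries and the trend on gene length removed it was 0.060 (edgeR adjusted p = 0.83). On log2(TPM + 1) without DMSO replicate 2 the sign turned, to -0.24 (limma adjusted p = 0.068).

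MVD (ENSG00000167508, chromosome 16, 88651940 to 88663091), the decarboxylase that yields isopentenyl diphosphate, stood at 38.4, 24.8 and 53.7 CPM in DMSO and at 35.4, 32.6 and 30.8 CPM in treated libraries. DMSO replicate 2 lay below all treated libraries and the other DMSO libraries above them. The log2 fold change was -0.24 ± 0.25 (edgeR adjusted p = 0.46; 95% interval -0.81 to 0.32). Without DMSO replicate 2 MVD fell by 0.49 ± 0.13 (edgeR adjusted p = 0.0063), and without DMSO replicate 3 its log2 fold change was 0.10 (edgeR adjusted p = 0.68), so its direction rested on which DMSO library was left out.

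IDI1 (ENSG00000067064, chromosome 10, 1039152 to 1056704) encodes the isomerase that makes the reactive form of the isoprene unit. It stood at 101.4, 110.7 and 81.9 CPM in DMSO and at 100.7, 100.9 and 95.5 CPM in treated libraries. The treated values lay inside the DMSO range. Its log2 fold change was 0.015 ± 0.14 (edgeR adjusted p = 0.94; 95% interval -0.30 to 0.33), and 0.11 ± 0.10 without DMSO replicate 2 (edgeR adjusted p = 0.39). Without that library log2(TPM + 1) gave -0.35 (limma adjusted p = 0.020), close to the median of all genes in that fit, -0.36. Its paralog IDI2 stood at 0.08 to 0.33 CPM over the 6 libraries.

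**Figure D2:**
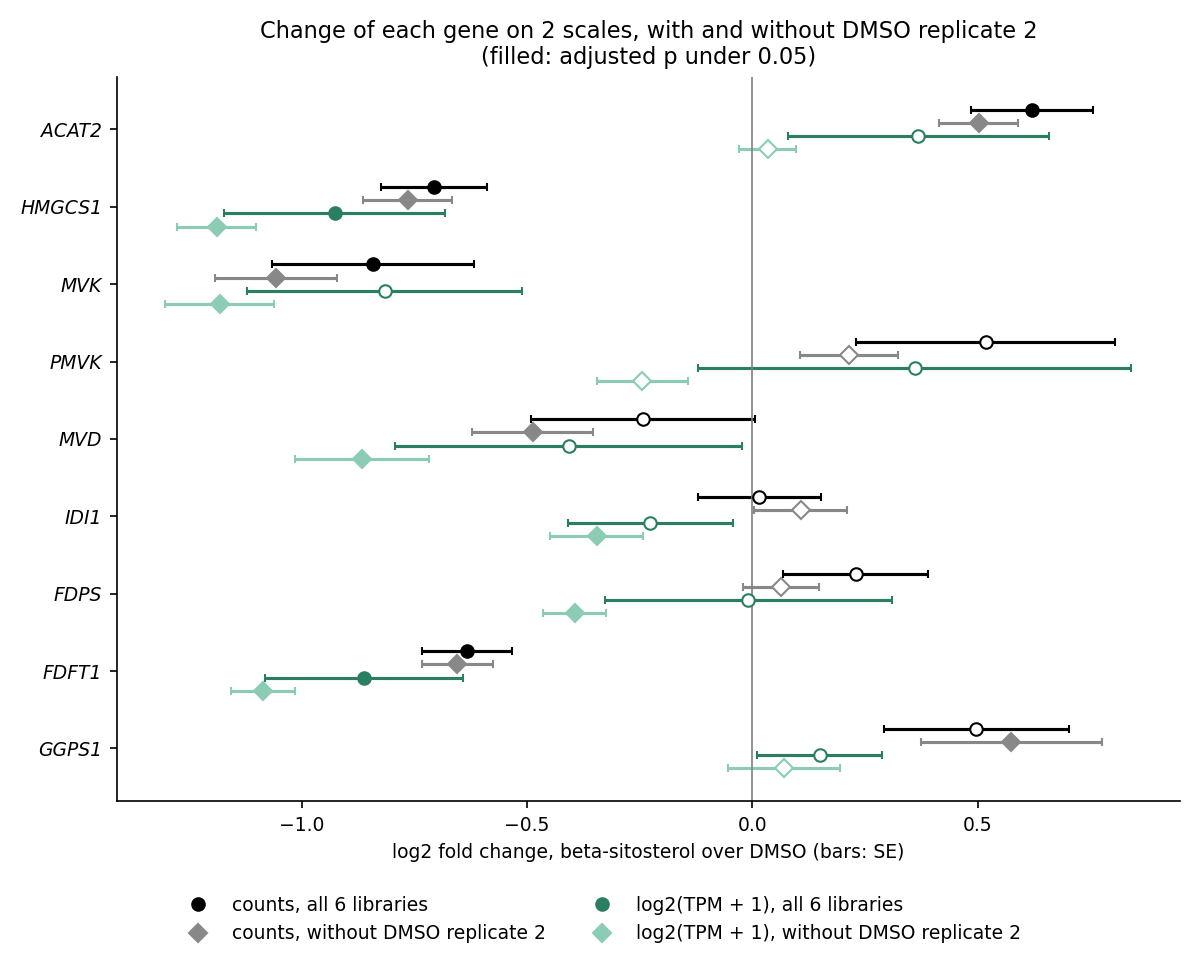
Log2 fold change of each gene, beta-sitosterol over DMSO, with SE bars, from counts (edgeR) and from log2(TPM + 1) (limma), each with all 6 libraries and without DMSO replicate 2; filled symbols have an adjusted p under 0.05. HMGCS1 and FDFT1 are filled and to the left of 0 in all 4 fits, and the other genes change side of the threshold or sign between fits.

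FDPS (ENSG00000160752, chromosome 1, 155308866 to 155320665), farnesyl diphosphate synthase, makes the branch point metabolite. It stood at 157.2, 109.5 and 163.6 CPM in DMSO and at 160.6, 169.6 and 174.1 CPM in treated libraries. Only DMSO replicate 2 was clearly below the rest. The log2 fold change was 0.23 ± 0.16 (edgeR adjusted p = 0.29; 95% interval -0.14 to 0.60), and 0.063 ± 0.084 without DMSO replicate 2 (edgeR adjusted p = 0.55). Without that library log2(TPM + 1) gave -0.39 (limma adjusted p = 0.0020), again close to that fit's median of -0.36. The span of FDPS overlaps the antisense RNA gene RUSC1-AS1 by 3812 bases, which stood at 5.67 to 9.10 CPM.

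FDFT1 (ENSG00000079459, chromosome 8, 11795582 to 11839298), squalene synthase, commits farnesyl diphosphate to sterols. It stood at 324.4, 307.4 and 311.7 CPM in DMSO and at 196.1, 207.1 and 205.1 CPM in treated libraries. The groups lay far apart, and DMSO replicate 2 did not stand out. FDFT1 fell by 0.63 ± 0.10 in log2 (± SE; edgeR adjusted p = 0.0018), and by 0.65 ± 0.079 without DMSO replicate 2 (edgeR adjusted p = 5.85e-06). It had the smallest p of the 9 genes. It was at -0.86 on log2(TPM + 1) (limma adjusted p = 0.028). With the trend of counts on gene length removed it fell by 0.40 (edgeR adjusted p = 0.018), over 1.5 times less than without that correction. The length used there was recovered from the ratio of counts to TPM. It was 14952 bases for FDFT1, against 5202 bases of GENCODE v29 exon.

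GGPS1 (ENSG00000152904, chromosome 1, 235327216 to 235344532), geranylgeranyl diphosphate synthase, draws farnesyl diphosphate to the other branch. It was the lowest of the 9, with 137, 130 and 101 counts in DMSO and 174, 136 and 123 in treated libraries. Scaled, these were 4.02, 4.08 and 2.92 CPM against 5.91, 5.15 and 4.47 CPM, and every treated library was above every DMSO library. The log2 fold change was 0.50 ± 0.21 and missed the threshold (edgeR adjusted p = 0.085; 95% interval 0.026 to 0.97). Without DMSO replicate 2 it was 0.57 ± 0.20 and passed (edgeR adjusted p = 0.024), as it did with DESeq2 on all libraries (DESeq2 adjusted p = 0.049). The TPM scale, log2(TPM + 1), gave 0.15 (limma adjusted p = 0.45). Its span overlaps ARID4B, which starts head to head with it, by 964 bases. ARID4B stood at 35.3 to 56.9 CPM in DMSO and 30.98 to 34.5 CPM in treated libraries.

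Ratios of 2 genes within a library do not depend on library scaling, but the trend on gene length was not removed from them. They were chosen after the values were seen and are given without a test. FDFT1 counts were 2.06, 2.81 and 1.91 times those of FDPS in DMSO and 1.22, 1.22 and 1.18 times in treated cells. The ratio of FDFT1 to GGPS1 counts, the synthases of the diverging branches, was 80.6, 75.4 and 106.9 in DMSO and 33.2, 40.2 and 45.9 in treated cells. At the head of the pathway, the ratio of HMGCS1 to ACAT2 counts was 0.87, 0.95 and 0.77 in DMSO and 0.36, 0.35 and 0.32 in treated cells. For consecutive kinases, the ratio of MVK to PMVK counts was 0.39, 0.54 and 0.41 in DMSO and 0.17, 0.16 and 0.17 in treated cells. All 4 ratios were lower in each treated library than in any DMSO library, DMSO replicate 2 included. For HMGCS1 over ACAT2 and FDFT1 over GGPS1 this had to be so, because both genes were already apart in opposite directions. FDFT1 and MVK, the numerators of the others, were already wholly lower. The ratios therefore add no separate support to the calls. Further ratios were computed and are not given.

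**Figure D3:**
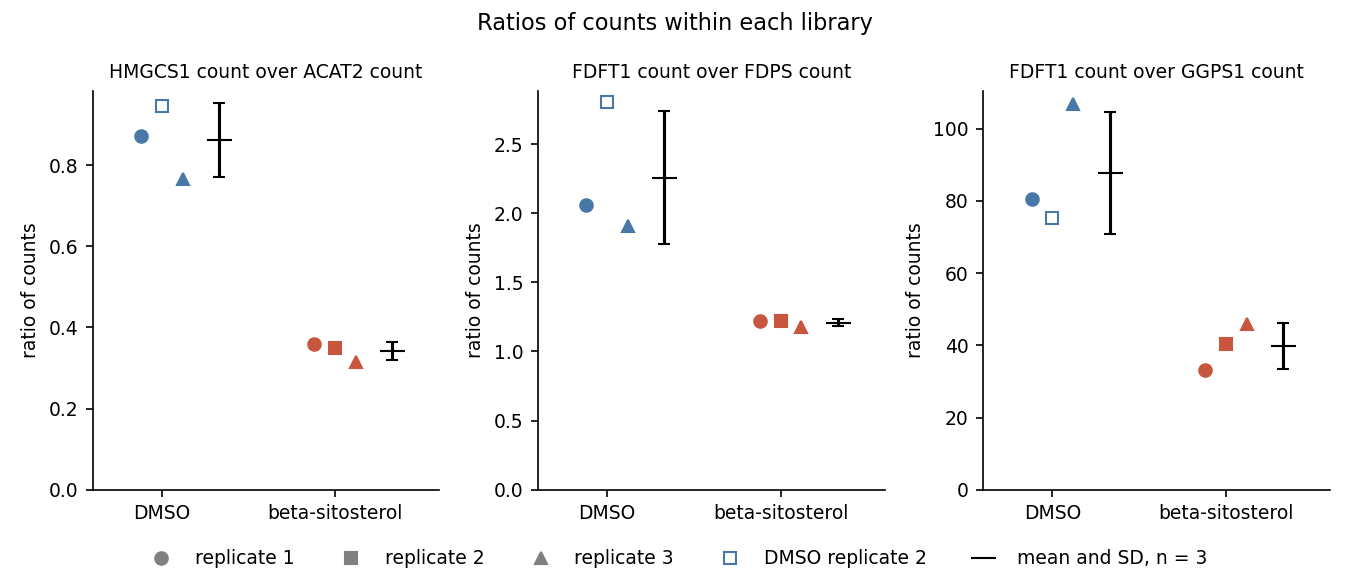
Ratios of counts within each library for HMGCS1 over ACAT2, FDFT1 over FDPS and FDFT1 over GGPS1, by group, with the mean and SD of 3 libraries, on axes that start at 0. The treated libraries sit below all DMSO libraries in each plot, at 1.18 to 1.22 against 1.91 to 2.81 for FDFT1 over FDPS. For the ratios over ACAT2 and GGPS1 this follows from the separation of the single genes.

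Levels of different genes can be compared only per length. By deposited TPM the DMSO order was PMVK (234 ± 133, SD, n = 3), ACAT2 (85.8 ± 30.2), IDI1 (55.1 ± 10.1), FDFT1 (40.4 ± 10.2), HMGCS1 (40.04 ± 12.04), FDPS (34.3 ± 13.7), MVD (13.7 ± 7.21), MVK (4.91 ± 2.37) and GGPS1 (1.53 ± 0.36). The SDs of FDFT1, HMGCS1 and FDPS overlapped, but FDPS was below the others within each DMSO library. In DMSO replicates 1 to 3 FDPS stood at 41.4, 18.4 and 43.0 TPM. FDFT1 stood at 47.2, 28.6 and 45.3 TPM and HMGCS1 at 49.98, 26.7 and 43.5 TPM. The lengths behind these TPM values, recovered from the ratio of counts to TPM and scaled to the typical gene, were 521 bases for PMVK and 14952 for FDFT1, whereas GENCODE v29 exons cover 1280 and 5202 bases. With CPM divided by the GENCODE v29 exon length in kb, the DMSO order became FDFT1 (60.5 ± 1.70), PMVK (46.9 ± 19.8), FDPS (38.6 ± 7.95), ACAT2 (23.6 ± 3.36), IDI1 (22.6 ± 3.39) and HMGCS1 (18.4 ± 1.77). MVD (8.26 ± 3.06), MVK (3.93 ± 1.23) and GGPS1 (0.96 ± 0.17) were the lowest on both scales. PMVK did not differ from FDFT1 beyond its spread: its DMSO values were 51.2, 25.3 and 64.3 CPM per kb against 62.4, 59.1 and 59.9 for FDFT1, so that PMVK was the higher in DMSO replicate 3 and lowest in DMSO replicate 2. In treated cells the CPM per kb of FDFT1 was 38.98 ± 1.12, below PMVK at 67.2 ± 3.61 and FDPS at 45.2 ± 1.85.

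**Figure D4:**
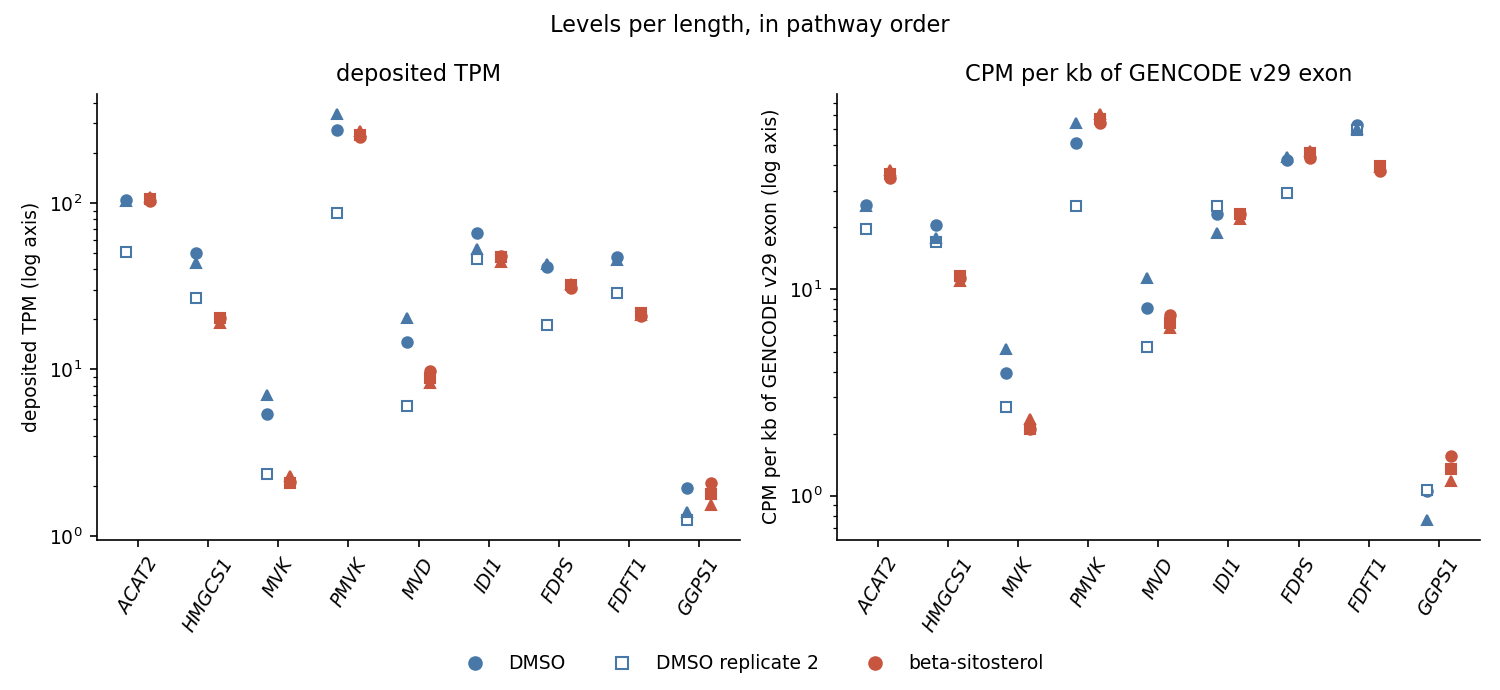
Level per length of the 9 genes in pathway order, in each library, as deposited TPM and as CPM per kb of GENCODE v29 exon, on log axes; open squares are DMSO replicate 2. MVD, MVK and GGPS1 lie lowest on both scales, and the highest DMSO mean is that of PMVK by TPM (234 ± 133) and of FDFT1 by CPM per kb (60.5 ± 1.70, within the spread of PMVK at 46.9 ± 19.8).

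The later steps and the controls of the pathway were described from 5 further gene lists. Of the 12 enzymes from squalene to cholesterol, 2 were lower and 0 higher, against the same background of 21.8% and 19.0%. Their median log2 fold change was -0.11. LSS, which closes the sterol rings, fell from 60.1, 44.8 and 75.4 to 34.8, 31.8 and 33.998 CPM (edgeR adjusted p = 0.0076), a call lost on log2(TPM + 1) (limma adjusted p = 0.066). SC5D, a desaturase, stood at 8.40, 12.6 and 6.32 CPM in DMSO and 14.9, 14.7 and 12.1 CPM in treated cells (edgeR adjusted p = 0.077). It was called higher without DMSO replicate 2, at 0.92 ± 0.16 in log2 (edgeR adjusted p = 2.19e-04), with no filter (edgeR adjusted p = 0.032) and by DESeq2 (DESeq2 adjusted p = 0.035). In the fit without DMSO replicate 2, 4 of the 12 were lower and 1 higher, against 30.3% and 26.4% of tested genes, and the median was -0.12.

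Of 12 SREBP control and uptake genes 5 were lower and 1, NPC2, a carrier of lysosomal cholesterol, was higher, against 21.8% and 19.0% of tested genes. The list's median was -0.29. Leaving out DMSO replicate 2, 7 were lower and 1 higher, against 30.3% and 26.4%, with a median of -0.34. As log2(TPM + 1), 4 were lower and 0 higher, against 19.3% and 6.19%. The lower genes included INSIG1, at -1.18 ± 0.13, and SCARB1, at -1.16 ± 0.12 (log2 fold change ± SE; edgeR adjusted p = 4.12e-04 and 3.23e-04). SREBF2, the gene of SREBP2 itself, named after its values were seen, went from 420.2, 405.5 and 499.99 to 268.1, 249.8 and 270.02 CPM, or -0.75 ± 0.12 in log2 (edgeR adjusted p = 0.0018). All 3 treated values were below all DMSO values.

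Genes that use the products of FDPS and GGPS1 were taken next. Of 10 protein prenylation genes 1 was lower and 2 higher, against 21.8% and 19.0% of tested genes, with a median of -0.0016. When DMSO replicate 2 was left out, 2 were lower and 3 higher, against 30.3% and 26.4%, with a median of 0.14. FNTB and FNTA encode the subunits of farnesyltransferase, which attaches the farnesyl group to proteins. FNTB fell from 8.04, 7.56 and 8.72 to 4.72, 4.16 and 4.65 CPM, and FNTA rose from 43.4, 43.2 and 38.01 to 63.95, 67.4 and 60.4 CPM (edgeR adjusted p = 0.0035 and 0.0039). ZMPSTE24, a protease of prenylated proteins, rose from 40.9, 38.7 and 29.3 to 61.2, 64.7 and 56.7 CPM (edgeR adjusted p = 0.0051). Of 11 genes of the dolichol, ubiquinone and other isoprenoid branches 5 were lower and 2 higher, against the same 21.8% and 19.0%, with a median of -0.47. These counts were again 5 and 2 without DMSO replicate 2, against 30.3% and 26.4%, and the median was -0.23. PDSS2, which builds the ubiquinone side chain, fell from 40.3, 39.4 and 37.8 to 19.4, 21.1 and 20.9 CPM (edgeR adjusted p = 6.19e-04), and COX10, which farnesylates haem, fell by 0.90 ± 0.17 on the log2 scale (edgeR adjusted p = 0.0037). TRIT1, a prenyltransferase of transfer RNA, rose from 43.1, 43.3 and 41.7 to 60.7, 71.2 and 71.3 CPM (edgeR adjusted p = 0.0029). On log2(TPM + 1), 0 genes of these 2 lists were called higher and 1 and 4 lower, and over all genes 6.19% were called higher and 19.3% lower (713 against 2226 genes). Leaving out treated replicate 1, 2 or 3 left 2, 2 or 3 lower and 2, 1 or 1 higher genes in the second list, while the lower calls over all genes went from 2512 to 1617, 1593 and 1654.

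**Figure D5:**
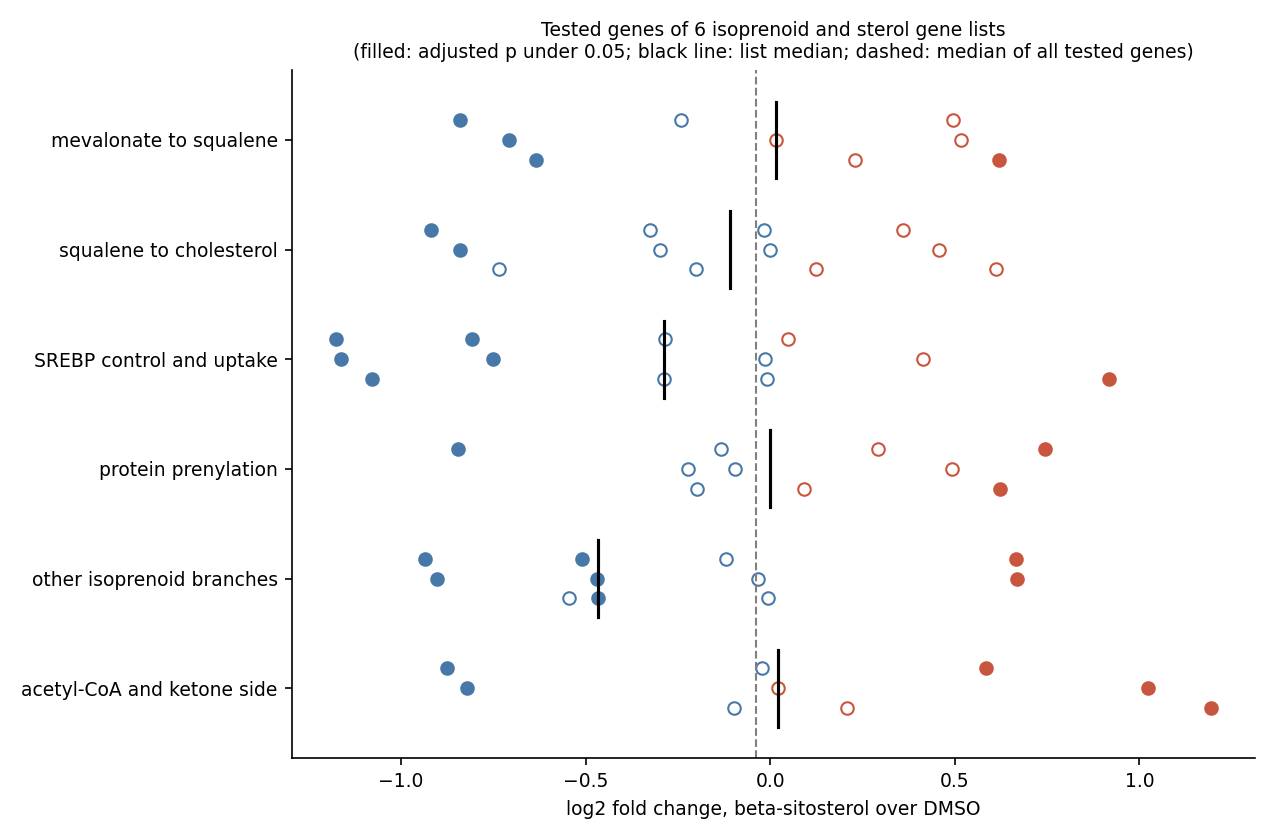
Log2 fold change of each tested gene in 6 lists, from the 9 mevalonate genes to the acetyl-CoA and ketone side; filled points have an edgeR adjusted p under 0.05, black lines are list medians and the dashed line is the median of all 11525 tested genes (-0.039). Each list holds genes on both sides of 0, and the lowest median is that of the other isoprenoid branches (-0.47), but without DMSO replicate 2 it is that of SREBP control and uptake (-0.34 against -0.23).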

How the data were processed

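RNA of 6 SU-DHL-8 libraries was sequenced, 3 per group. The authors deposited raw counts (whole numbers of reads for each gene) and, for the same genes, TPM. Per the submitters' processing notes the tools were StringTie 2.2.1, featureCounts 2.0.1, STAR 2.7.10 and fastp 0.23.2, named without roles. Annotation and strand setting: not given in the sources used here. Here, 61 of 65807 rows that repeat a symbol were dropped. Counts were tested in R 4.3.3 with edgeR 4.0.16 (quasi-likelihood, TMM, filterByExpr, group only, two-sided), with Benjamini-Hochberg adjustment over all 11525 tested genes. Standard errors came from each log2 fold change and its F statistic. The test was checked on simulated data with equal spread in both groups and no library set apart like DMSO replicate 2. In the real data the median SD of log2 CPM was 0.27 in DMSO and 0.086 in treated libraries, which that check does not cover. The deposited TPM were tested with limma 3.58.1 on log2(TPM + 1). Alternatives were DESeq2 1.42.0, limma-voom, RLE factors or library totals, no filter or 1 CPM in 3 libraries, a replicate block, log2(TPM + 0.1), only protein-coding genes, a loess trend on gene length removed, and each library left out. Lengths for that trend were recovered from the ratio of counts to TPM. Once scaled, they came within 10% of the GENCODE v29 exon length for only 16.1% of the genes compared. Named were the 9 genes, the 3 smallest p-values of each related list, paralogs and overlapping neighbours. Genes and lists were chosen with earlier results of these data known. Some genes of the pathway, or named by this rule, are not reported here. Positions and promoters are RefSeq, GRCh38.p14. A pairing by replicate number was not established (same-numbered deviations from the group mean correlated at 0.04, 0.10 and 0.15, not all over 0.1). By these deviations all 6 libraries still correlated best with their own number in the other group.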

Additional observations from a re-analysis of the deposited data

How the results depend on the processing

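FDFT1 and HMGCS1 were called lower under all 20 alternatives, from -1.09 to -0.40 and from -1.19 to -0.63 on the log2 scale. MVK stayed lower and lost its call under 5 of 20 (adjusted p up to 0.089), and ACAT2 stayed higher and lost it under 3, all on TPM. Lower mevalonate genes numbered 2 to 4 when 1 library was left out, and higher ones 1 to 2. DESeq2 called 2 higher. On log2(TPM + 1) and log2(TPM + 0.1) 0 were higher. Alternatives chosen after seeing the data were TPM rescaled to the listed rows, and log2(TPM + 1) or the length trend without DMSO replicate 2. The latter fits gave 0 higher and 6 lower (56.1% of all genes were lower there), and 2 higher. All genes called higher were 713 and 691 on the TPM scales, 1360 rescaled and 1215 without DMSO replicate 2. All genes called lower were 4053 rescaled and 6470 without DMSO replicate 2, and 1593 to 3549 on counts with 1 library left out. Signs turned for FDPS (-0.0098 on log2(TPM + 1), -0.0068 on log2(TPM + 0.1), -0.040 rescaled, -0.39 without DMSO replicate 2) and IDI1 (-0.23, -0.23, -0.26 and -0.35, -0.090 with the length trend removed, and -0.061 to 0.11 with 1 library left out, lowest without DMSO replicate 3). They turned for TCP1 (-0.0093, -0.0092, -0.043 and -0.28), for MVD and MMAB without DMSO replicate 3 (-0.49 to 0.10 and -0.39 to 0.031 with 1 library left out), and for PMVK without DMSO replicate 2 on log2(TPM + 1) (-0.24) or with the length trend removed (-0.15). The cause was not tested. With the replicate number as a block, 3 mevalonate genes were lower and 1 higher, and 2306 genes higher and 2437 lower in all. By deviations from the group mean, all 6 libraries correlated best with their own number in the other group, a hint from the data. GGPS1 had the fewest counts of the 9 genes, 101 to 174 per library.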

Other observations

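On the acetyl-CoA and ketone body side of the pathway, 3 of 9 tested genes were higher and 2 lower, against 19.0% and 21.8% of all tested genes, with a median log2 fold change of 0.021. Without DMSO replicate 2, 3 were higher and 3 lower, against 26.4% and 30.3%, with a median of -0.015. ACAT1, the mitochondrial paralog of ACAT2, rose from 16.5, 18.9 and 16.8 to 25.7, 26.3 and 26.3 CPM (edgeR adjusted p = 0.0060). BDH2 rose by 1.02 ± 0.18 on the log2 scale (edgeR adjusted p = 0.0032). BDH1, the mitochondrial hydroxybutyrate dehydrogenase, fell from 112.3, 106.8 and 132.3 to 63.3, 60.3 and 67.997 CPM (edgeR adjusted p = 0.0012). ACLY, which supplies cytosolic acetyl-CoA from citrate, fell from 551.1, 444.9 and 634.8 to 302.5, 310.7 and 309.95 CPM (edgeR adjusted p = 0.0026). On log2(TPM + 1), 0 genes of the list were called higher and 2 lower, against 6.19% and 19.3%. ACSS2, the other cytosolic source of acetyl-CoA, stood at 0.14 to 0.41 CPM and was not tested.

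Among neighbours of the mevalonate genes, SOD2, whose annotated span overlaps that of ACAT2 by 237 bases on the opposite strand, rose from 126.5, 80.2 and 81.6 to 184.1, 166.03 and 150.3 CPM (edgeR adjusted p = 0.011). WDR37, whose span overlaps that of IDI1 by 320 bases, fell by 0.53 ± 0.13 on the log2 scale (edgeR adjusted p = 0.013). SOD2 lost its call without treated replicate 1 (edgeR adjusted p = 0.055) and WDR37 without any 1 treated replicate (0.073, 0.059 and 0.053). Both also lost it on log2(TPM + 1) (limma adjusted p = 0.23 for SOD2 and 0.082 for WDR37) and log2(TPM + 0.1) (0.23 and 0.078). With TPM rescaled, or as log2(TPM + 1) without DMSO replicate 2, SOD2 was not called (0.071 and 0.31) and WDR37 was (0.0017 and 8.30e-05).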
